A study of Mus musculus with 8 samples.

Results

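The genes *Irak1*, *Irak2*, *Traf6*, *Peli1* and *Tollip* are 5 of the 84 pathway genes on a quantitative PCR plate of Toll-like receptor signalling that was read in whole mouse spleen. They were taken by name, as the kinases, ubiquitin ligases and brake that sit directly below the adaptor MyD88. Mice received R848 (resiquimod), a synthetic compound that activates the endosomal receptor TLR7, at 1 mg per kg per day over 7 days, or PBS (Mock). The groups were C57BL/6 wild-type mice with Mock (2 samples) or R848 (2 samples), TLR7-/- mice with Mock (1 sample) or R848 (1 sample), and IFNAR-/- mice, which lack the type I interferon receptor, with Mock (1 sample) or R848 (1 sample). Each of the 8 samples was RNA pooled from 3 mice, the pair of wild-type samples of a treatment is used here as the authors' mean, and the age, sex and genetic background of the deficient mice are not given in the sources used here. A level is given as delta-Ct, in cycles: the cycle at which the gene crossed the detection threshold minus the mean cycle of the reference genes *Hprt1*, *Hsp90ab1* and *Gapdh*. A lower delta-Ct is a higher level, and 1 cycle is 2-fold. No value has a replicate error and no test was possible, so a level called higher or lower is so only between the pooled samples that were read. The strain of each table is known from its name alone. The TLR7-/- samples are called TLR7-labelled, since their *Tlr7* reading was no lower than in the wild type and does not check the label. In whole tissue, fewer cells of a type and less RNA per cell cannot be told apart.

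When a Toll-like receptor or the interleukin-1 receptor is engaged, MyD88 gathers IRAK kinases into a complex, and IRAK1 and IRAK2 then engage TRAF6. TRAF6 is a RING ubiquitin ligase that works with the conjugating enzyme Ube2n and its partner Ube2v1 to build ubiquitin chains, on which the kinase TAK1 (encoded by *Map3k7*) and the IKK complex assemble. Pellino-1, encoded by *Peli1*, is a ubiquitin ligase that binds and modifies IRAKs, and Tollip is an adaptor that holds IRAK1 in check. R848 signals in mice through TLR7 and so through this node.

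The columns differed in how far down they could see. Readings above 35 cycles were set to 35 by the authors, so each column has a highest delta-Ct, its cap, which lay between 12.43 (IFNAR-/- Mock) and 15.63 (TLR7-labelled R848) in the 5 columns where it could be identified. The mean reference Ct was 21.85, 19.90 and 22.57 with Mock (wild type, TLR7-labelled and IFNAR-/-), at most 18.33 in wild-type R848, and 19.37 and 20.07 in R848 of TLR7-labelled and IFNAR-/- mice. Apart from *Irak1*, the members lay at least 3.10 cycles below the cap wherever it was known. Readings were recorded in steps of 0.1 cycle in the deficient strains, which makes 0.05 the step of the wild-type means. *Tlr7* was read at a delta-Ct of 9.20 and 9.33 in TLR7-labelled Mock and R848, beside 12.00 and 9.47 in wild-type mice, so its level was no lower than in the wild type. The sources used here do not say where its assay lies relative to the deleted part. The plate holds no gene of the interferon receptor, and no lineage marker such as *Cd3e* or *Itgam* with which to check the tissue.

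The stretches around the transcription starts of *Traf6* and *Tollip*, whose wild-type differences were nearly equal, and of *Irak2*, whose wild-type readings were level, are shown for comparison of members that moved together with a member that did not. Each runs 5′ to 3′ on the gene's own strand from 250 bases before the start to 50 after it, from RefSeq on build GRCm38.p6, with every CG pair in capitals. They lie at chr2:101678170-101678469 (plus strand, *Traf6*), chr7:141902412-141902711 (minus strand, *Tollip*) and chr6:113638217-113638516 (plus strand, *Irak2*).
Traf6: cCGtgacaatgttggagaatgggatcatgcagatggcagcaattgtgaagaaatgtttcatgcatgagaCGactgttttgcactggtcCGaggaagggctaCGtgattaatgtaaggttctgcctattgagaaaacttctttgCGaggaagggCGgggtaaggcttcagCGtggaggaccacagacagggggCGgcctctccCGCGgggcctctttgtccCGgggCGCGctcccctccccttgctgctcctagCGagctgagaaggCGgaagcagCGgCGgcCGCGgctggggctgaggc
Tollip: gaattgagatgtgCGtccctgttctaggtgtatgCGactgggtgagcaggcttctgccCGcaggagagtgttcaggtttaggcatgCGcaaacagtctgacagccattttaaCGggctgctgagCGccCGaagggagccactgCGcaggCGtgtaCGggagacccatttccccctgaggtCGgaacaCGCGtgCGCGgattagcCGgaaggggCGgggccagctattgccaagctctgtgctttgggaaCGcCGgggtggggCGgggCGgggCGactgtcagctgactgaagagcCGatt
Irak2: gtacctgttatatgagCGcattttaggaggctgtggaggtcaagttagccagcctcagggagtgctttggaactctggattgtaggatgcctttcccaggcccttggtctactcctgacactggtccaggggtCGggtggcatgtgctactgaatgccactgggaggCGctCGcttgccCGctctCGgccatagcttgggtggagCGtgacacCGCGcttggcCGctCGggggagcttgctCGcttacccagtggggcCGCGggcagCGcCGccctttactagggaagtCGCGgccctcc

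CG pairs numbered 19 in the *Traf6* stretch, 23 in *Tollip* and 18 in *Irak2*. The stretch of *Peli1* (chr11:21091074-21091373, plus strand) held 20 and that of *Irak1* (chrX:74023872-74024171, minus strand) held 22. All 5 members thus had at least 18, as did 29.7% of 32851 mouse promoters of this length and 47.9% of the 71 plate genes that could be matched, so a CG-rich start was common on this plate. None of the members' stretches held any of 3 motifs searched on both strands: the core of the interferon-stimulated response element, the STAT site TTCNNNGAA and the NF-kB consensus. These stood in 3.44%, 8.3% and 5.8% of all promoters, overlaps between the motifs allowed. That says only that these letters are not in these windows.

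*Irak1*, the first IRAK kinase to be cloned and a direct partner of TRAF6, could not be followed on this plate. It stood at the cap in 5 of 6 columns, which are all the columns whose cap is known. Its listed delta-Ct was 13.15 for wild-type Mock, 15.10 (Mock) and 15.63 (R848) for the TLR7-labelled pair, and 12.43 (Mock) and 14.93 (R848) for the IFNAR-/- pair. These values only trace the caps, so the apparent drops with R848 have no known direction. For wild-type R848 it was listed at 15.17, which is 1.5 cycles below the highest value of that column (16.67, *Tlr5*). The mean Ct of *Irak1* there was therefore at most 33.50, and at least 1 of the wild-type R848 samples gave a reading below the limit of 35. Only 4 plate genes were at the cap in all 5 of those columns, the others being *Csf3*, *Ifnb1* and *Tlr5*. Whether the *Irak1* assay or the transcript level was the limit was not tested.

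*Irak2*, encoding the IRAK that sustains signalling after IRAK1, had level readings in wild-type mice and a higher reading with R848 in IFNAR-/- mice. Wild-type mice gave a delta-Ct of 7.5 with Mock and 7.47 with R848, a log2 difference (Mock delta-Ct minus R848 delta-Ct) of 0.03. TLR7-labelled mice gave 6.40 with Mock and 6.03 with R848, a log2 difference of 0.37. IFNAR-/- mice gave 9.33 with Mock and 7.03 with R848, a log2 difference of 2.30, or 4.92-fold. The IFNAR-/- Mock column stood apart as the lowest level of *Irak2*, 1.83 cycles past its neighbour, and the highest levels were the pair of TLR7-labelled columns. From 6.03 to 7.5, the other 5 columns followed each other in gaps of 0.63 cycles or less. The IFNAR-/- Mock reading, on which the 4.92-fold difference rests, was at a Ct of 31.90, 3.10 cycles below the cap. Of 69 genes below the cap in every column, IFNAR-/- Mock was the lowest Mock level for 46. TLR7-labelled Mock was the highest Mock level for 59 of the 69.

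*Traf6*, the ubiquitin ligase on which MyD88 signals converge, had higher readings with R848 in all strains, by more than 2-fold in wild-type and IFNAR-/- mice. The wild-type delta-Ct was 8.35 with Mock and 5.32 with R848, a log2 difference of 3.03, or 8.17-fold. For the TLR7-labelled pair the readings were 6.10 and 5.73, a log2 difference of 0.37. For the IFNAR-/- pair they were 8.33 and 6.53, a log2 difference of 1.80, or 3.48-fold. The 6 columns fell into a high set of 4, from 5.32 to 6.53, and a low set of wild-type and IFNAR-/- Mock, which differed from each other by 0.02 cycles. The TLR7-labelled Mock column belonged to the high set, 0.37 cycles from TLR7-labelled R848.

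*Peli1*, encoding the IRAK-modifying ligase Pellino-1, moved least among the members whose wild-type reading moved. It read 3.70 with Mock and 2.42 with R848 in the wild type, a log2 difference of 1.28, or 2.43-fold. Among TLR7-labelled mice it read 2.6 and 2.53, a log2 difference of 0.07. Among IFNAR-/- mice it read 4.03 and 3.13, a log2 difference of 0.90, or 1.87-fold, short of 2-fold. All 6 readings lay within 1.61 cycles, and no neighbours in their order were more than 0.57 cycles apart. From the highest level the order was wild-type R848, TLR7-labelled R848, TLR7-labelled Mock, IFNAR-/- R848, wild-type Mock and IFNAR-/- Mock.

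*Tollip*, the brake on the IRAK complex, had the highest ratio among the members in each strain. Its readings were 6.05 with Mock and 2.97 with R848 in the wild type, a log2 difference of 3.08, or 8.46-fold. They were 5.00 and 4.13 for the TLR7-labelled pair, a log2 difference of 0.87, or 1.83-fold. They were 6.73 and 4.13 for the IFNAR-/- pair, a log2 difference of 2.6, or 6.06-fold. The 3 R848 columns held the 3 highest levels and the 3 Mock columns the 3 lowest. *Tollip* was the only member with that division, since TLR7-labelled Mock exceeded an R848 column for *Irak2*, *Traf6* and *Peli1*. The division was not particular to *Tollip* on the plate. Other pathway genes had it as well, among them *Tlr1*, *Tnfaip3*, *Tnfrsf1a* and *Map2k3*. For *Tollip*, wild-type R848 stood 1.16 cycles above both deficient R848 columns, which were equal.

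**Figure D1:**
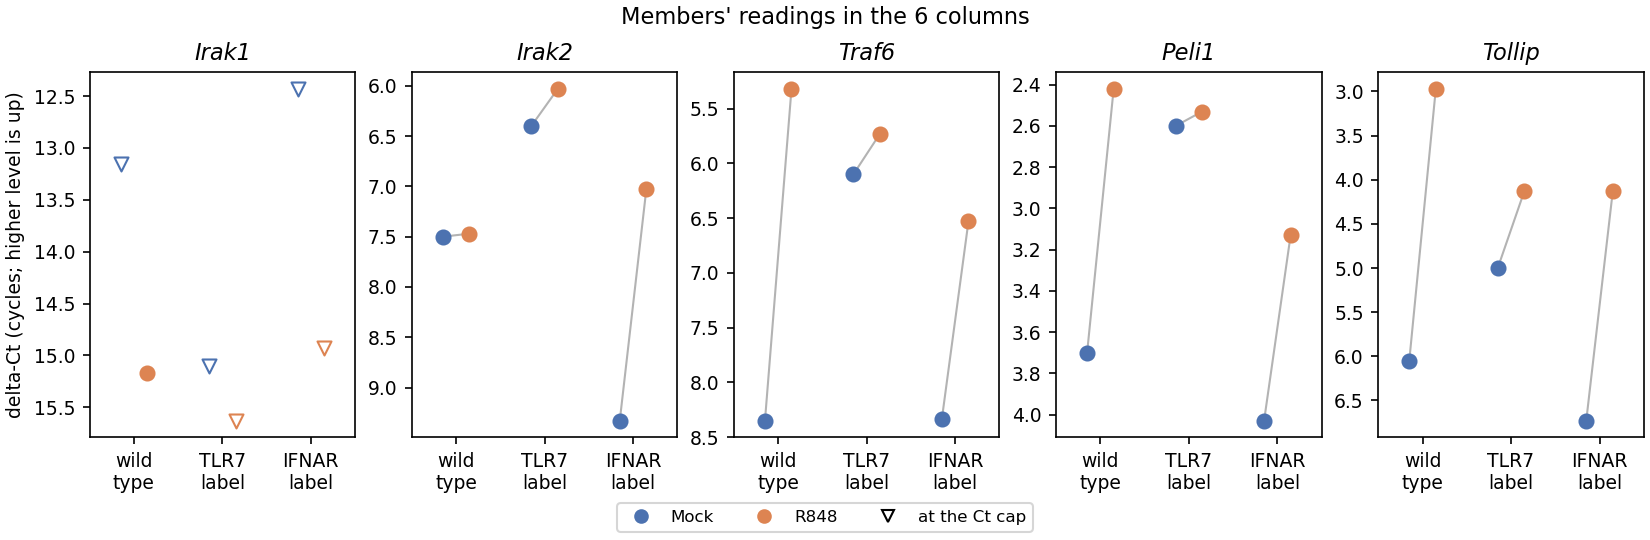
Delta-Ct in cycles (vertical axis, each panel on its own scale, higher level up) of the 5 members in Mock (blue) and R848 (orange) columns of the 3 strains. Each point is 1 deposited value, a mean of 2 experiments in wild type, and open triangles are readings at the Ct cap, joined by no line. *Irak1* is at the cap in 5 of 6 columns, and the lowest point of *Irak2* is IFNAR-/- Mock at 9.33.

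Counted at 2-fold, 3 of the 5 members were higher with R848 in wild-type mice (*Traf6*, *Peli1* and *Tollip*), against 38.1% of the 84 pathway genes. None was lower, against 13.1%. Among TLR7-labelled mice none of the 5 was higher and none lower, against 4.76% and 3.57%. Among IFNAR-/- mice 3 were higher (*Irak2*, *Traf6* and *Tollip*), against 53.6%, and none was lower, against 2.38%. The IFNAR-/- count was thus near that of the plate as a whole. *Irak1* is the fifth member in each count and has no known direction in any strain.

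Over the 4 members with a known direction, the median log2 difference was 2.15 in wild-type mice, where it was 0.43 over the 79 genes of known direction. *Tollip* ranked 6th and *Traf6* 7th from the highest of those 79, *Peli1* 26th and *Irak2* 52nd. In TLR7-labelled mice the members' median was 0.37 beside 0.07 over 79 genes, and the quartiles of those genes were -0.23 and 0.37. *Tollip*, at 0.87, was past that range and ranked 5th. In IFNAR-/- mice the members' median was 2.05 beside 1.5 over 75 genes, with *Tollip* 17th, *Irak2* 21st, *Traf6* 34th and *Peli1* 46th. The order of the members was therefore not the same in wild-type and IFNAR-/- mice, *Irak2* having passed *Traf6* and *Peli1*.

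**Figure D2:**
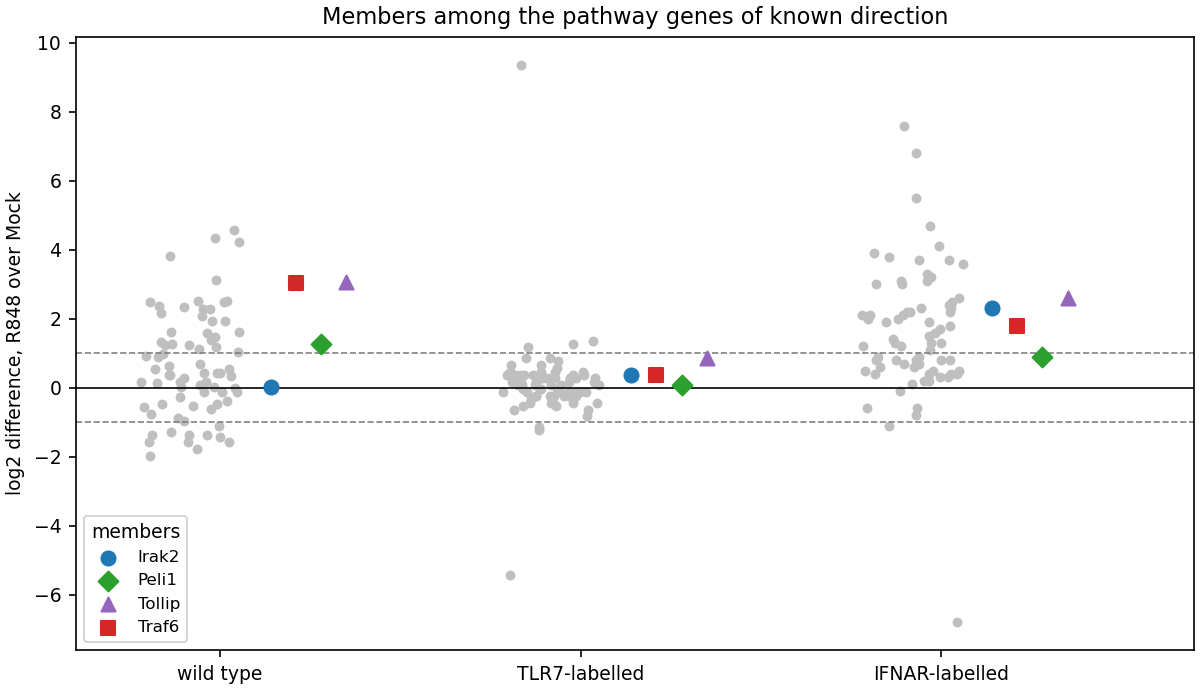
Log2 difference of R848 over Mock (vertical axis) for the pathway genes of known direction in each strain, with grey points for the other genes and coloured symbols for the members, and dashed lines at 2-fold. In wild type *Tollip* (3.08) and *Traf6* (3.03) lie near the top and *Irak2* (0.03) at 0, whereas in the TLR7-labelled pair all members lie between 0.07 and 0.87.

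Short lists of plate genes, each assigned to a type of spleen cell, were summed beside the members. Readings at the cap were summed at their limit. The plate holds no lineage marker against which to check the lists. They did not move one way in wild-type mice, the myeloid and stromal sums being higher with R848 and the others lower. In wild-type mice the myeloid list (*Cd14*, *Clec4e*, *Tlr4*, *Ly96* and *Pglyrp1*) had 3 of 5 genes called higher and none lower, against 38.1% and 13.1% of the 84 genes. Its summed level, as a multiple of the reference genes, was 0.171 with Mock and 0.285 with R848. Its sum was 0.265 in both TLR7-labelled columns, with *Cd14* alone called higher, against 4.76% of the 84 genes. It was 0.133 and 0.349 in the IFNAR-/- columns, with 3 genes higher and *Cd14* lower, against 53.6% and 2.38% of the 84 genes. The myeloid sum was thus higher with R848 in the strains where *Traf6* and *Tollip* were at least 2-fold higher, and so was the stromal sum. In IFNAR-/- mice the B cell and T and NK cell sums were higher as well. The median of all 84 genes was 1.25 log2 units higher there. The B cell list (*Btk*, *Cd86* and *Ly86*) summed to 0.278 and 0.171 in wild-type Mock and R848, to 0.234 and 0.193 in the TLR7-labelled columns and to 0.123 and 0.192 in the IFNAR-/- columns. *Btk* was lower in the wild type and at the cap in all 4 columns of the deficient strains. The T and NK cell list (*Il2*, *Lta* and *Ifng*) summed to 0.0122 and 0.00531 in the wild type, with *Il2* and *Lta* lower, to 0.0202 and 0.0208 in the TLR7-labelled pair, and to 0.00637 and 0.00762 in IFNAR-/- mice, with *Ifng* higher and *Il2* at the cap. The list labelled stromal (*Il1r1*, *Ppara*, *Ccl2* and *Muc13*) summed to 0.00514 and 0.00634, to 0.0452 and 0.0084, and to 0.00229 and 0.0265 in the same order of strains. Its label was not checked, and it includes a membrane mucin (*Muc13*), so its sum is no measure of stromal cells. *Btk*, *Casp8*, *Ccl2* and *Cd14* fill the first 4 wells, of which none holds a member. *Cd14* was higher by at least 9.37 log2 units in the TLR7-labelled pair and lower by at least 6.80 in the IFNAR-/- pair. *Ccl2* went the other way, lower by 5.43 and higher by at least 6.80. These wells enter the myeloid, B cell and stromal sums, and whether the wells or the tissue differed was not tested. The part of these cell types in the members' differences was not tested.

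Setting the strains' responses against each other, the wild-type response exceeded the TLR7-labelled response by at least 1 log2 unit for *Traf6* (2.66), *Tollip* (2.21) and *Peli1* (1.21), as it did for 34.7% of 75 genes below the cap. *Irak2* differed by -0.34. The IFNAR-/- response exceeded the TLR7-labelled response for *Irak2* (1.93), *Tollip* (1.73) and *Traf6* (1.43), as it did for 62.3% of 69 genes, and *Peli1* differed by 0.83. Between IFNAR-/- and wild-type mice the members parted. The IFNAR-/- response was higher by 2.27 for *Irak2*, as it was by at least 1 unit for 44.9% of 69 genes, and lower by at least 1 unit for *Traf6* (-1.23), as it was for 4.35%. *Tollip* (-0.48) and *Peli1* (-0.38) differed by less. As deposited *Traf6* was 1 of 3 genes of 69 with so much lower a response in IFNAR-/- mice, and after centring each strain on its median gene there were 15 of 69 (21.7%), *Tollip* and *Peli1* among them. These differences of responses share the columns compared and are not separate evidence.

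The Mock columns of the strains were themselves apart, the TLR7-labelled one from both others. The TLR7-labelled Mock column was at least 2-fold higher than wild-type Mock for 4 members, as for 48.8% of the 84 genes, by 2.25 log2 units for *Traf6*, 1.10 each for *Irak2* and *Peli1* and 1.05 for *Tollip*. The IFNAR-/- Mock column was at least 2-fold lower than TLR7-labelled Mock for the same 4 members, as for 60.7% of genes. Its log2 differences from TLR7-labelled Mock were -2.93 for *Irak2*, -2.23 for *Traf6*, -1.73 for *Tollip* and -1.43 for *Peli1*. For the wild-type minus TLR7-labelled difference of responses, the Mock columns gave the larger part for *Traf6* (2.25, R848 0.41) and *Peli1* (1.10, R848 0.11). The R848 columns did so for *Tollip* (1.16, Mock 1.05) and *Irak2* (-1.44, Mock 1.10). For IFNAR-/- minus TLR7-labelled, the Mock part was the larger for each of these members. Between IFNAR-/- and wild-type mice, the difference of responses for *Traf6* came by -0.02 from the Mock columns and by -1.21 from the R848 columns. For *Tollip* these parts were 0.68 and -1.16, and for *Peli1* 0.33 and -0.71, so the R848 columns were the farther apart for 3 of the 4 members. For *Irak2* the parts were 1.83 from Mock and 0.44 from R848. Across strains the Mock readings of *Irak2* spanned 2.93 cycles and its R848 readings 1.44. The same spans were 2.25 and 1.21 for *Traf6*, 1.73 and 1.16 for *Tollip*, and 1.43 and 0.71 for *Peli1*. All 4 members had the wider span in Mock, as did 72.5% of the 69 genes below the cap throughout.

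The Mock levels of the members moved with the reference genes' own Ct. That Ct was latest in IFNAR-/- Mock, earlier in wild-type Mock and earliest in TLR7-labelled Mock, and the delta-Ct of *Irak2*, *Peli1* and *Tollip* had the same order, as in 40 of 69 genes. For *Traf6* the IFNAR-/- and wild-type values were 0.02 cycles apart in the other order. Within each strain the reference Ct was also earlier with R848 than with Mock. It went from 21.85 to at most 18.33 in wild-type mice and from 22.57 to 20.07 in IFNAR-/- mice. In TLR7-labelled mice it went from 19.90 to 19.37. The members' median log2 differences were 2.15, 2.05 and 0.37 in that order of strains. The part of the amount of template in the Mock levels and in the differences with R848 was not tested. With TLR7-labelled Mock in place of each strain's own Mock, the wild-type log2 differences became 2.03 for *Tollip*, 0.78 for *Traf6*, 0.18 for *Peli1* and -1.07 for *Irak2*. For the IFNAR-/- column they became 0.87, -0.43, -0.53 and -0.63 in the same order of genes. With the median of the 3 Mock columns as the control for all strains, chosen after seeing the data, the TLR7-labelled R848 column was itself at least 2-fold higher for *Traf6* (2.6), *Tollip* (1.92), *Irak2* (1.47) and *Peli1* (1.17).

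Other choices of reference genes moved the members less far in wild-type mice than TLR7-labelled Mock as control did. *Traf6* and *Tollip* were at least 2-fold higher in wild-type mice under each of the 5 other scalings, and *Peli1* was below 2-fold with all 5 housekeeping genes as reference (0.78) and after centring on the median gene (0.88). *Irak2* in wild-type mice turned below 0 under 4 of the 5, down to -0.47, and stayed within 2-fold in all. The median of all 84 genes in IFNAR-/- mice was itself 1.25 log2 units higher with R848. After centring on it *Tollip* (1.35) and *Irak2* (1.05) were still 2-fold higher, *Traf6* was at 0.55 and *Peli1* at -0.35. Centring also moved the contrast between IFNAR-/- and wild-type responses to -2.08 for *Traf6*, -1.32 for *Tollip*, -1.23 for *Peli1* and 1.43 for *Irak2*. Over all 84 genes the split of higher to lower calls moved too. It was 32 to 11 in wild-type mice as deposited, 39 to 5 with *Hsp90ab1* alone, 22 to 17 with all 5 housekeeping genes and 23 to 15 after centring. The IFNAR-/- split was 45 to 2 as deposited and 23 to 8 after centring. After centring no member differed by 1 unit between IFNAR-/- and TLR7-labelled responses, the largest difference being 0.75 for *Irak2*.

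**Figure D3:**
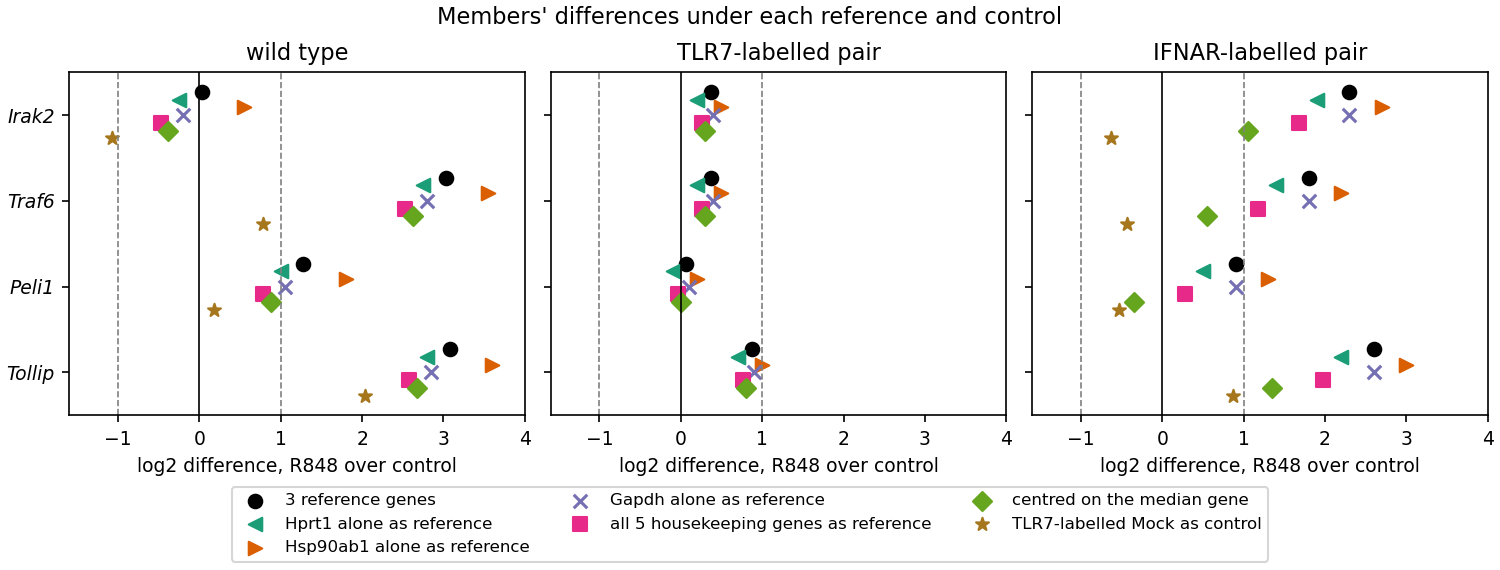
Log2 difference of R848 over control (horizontal axis) of 4 members (rows) in the 3 strains (panels), each symbol being 1 choice of reference genes or control column, with dashed lines at 2-fold. *Traf6* and *Tollip* stay past 2-fold in wild type under every reference choice, and with TLR7-labelled Mock as control *Traf6* is at 0.78.

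A difference between members read in the same column involves no reference gene, and was examined for the 6 pairs of the 4 members, a comparison chosen after seeing the data. In wild-type mice the response of *Irak2* was 3.00 log2 units below that of *Traf6*. The same pair differed by 0.00 in TLR7-labelled mice and by 0.50 in IFNAR-/- mice, with *Irak2* above *Traf6*. *Irak2* minus *Peli1* gave -1.25, 0.30 and 1.40 in wild-type, TLR7-labelled and IFNAR-/- mice. *Irak2* minus *Tollip* gave -3.05, -0.50 and -0.30. The lag of *Irak2* behind the other members was thus wide in wild-type mice and narrow or turned in the deficient strains. *Traf6* minus *Tollip* was -0.05, -0.50 and -0.80 in the same order of strains, so this pair was close in wild-type mice. In IFNAR-/- mice it was farther apart than *Irak2* and *Tollip* (-0.30). *Traf6* minus *Peli1* was above 0 in each strain (1.75, 0.30 and 0.90), and *Peli1* minus *Tollip* was below 0 in each (-1.80, -0.80 and -1.70).

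**Figure D4:**
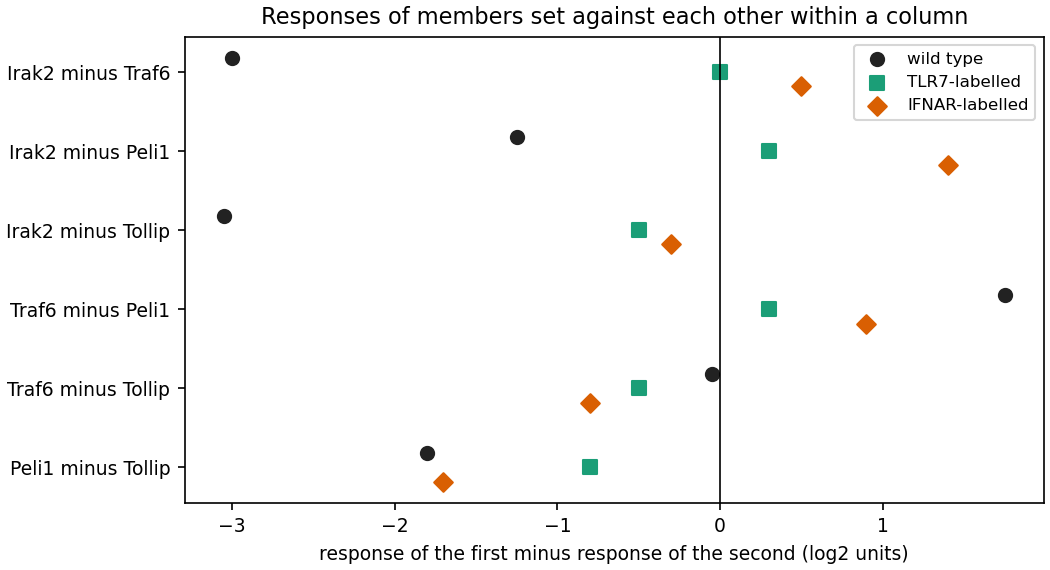
Response of one member minus that of another (horizontal axis, log2 units) for the 6 pairs of members below the cap, with 1 symbol per strain. *Irak2* minus *Traf6* is -3.00 in wild type and 0.50 in the IFNAR-labelled pair, and *Traf6* minus *Tollip* lies between -0.80 and -0.05 in all strains.

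For each member the 3 plate genes with the most similar pattern were taken by the root mean square difference of delta-Ct over the 6 columns, after subtracting each gene's mean. This was a comparison with 68 other genes below the cap throughout. For *Irak2* they were *Rela*, an NF-kB subunit (0.30 cycles), *Ikbkb*, an IKK kinase (0.30), and *Fos*, an AP-1 subunit (0.31), where the median gene was 0.86 away. For *Traf6* they were *Irf1*, an interferon-response transcription factor (0.38), *Tlr6* (0.40) and *Tnfaip3*, the ubiquitin-editing brake A20 (0.41), with the median at 0.95. *Irf1* was also nearest to *Peli1* (0.25), ahead of *Map3k7* (0.31) and the JNK kinase kinase *Map2k4* (0.35), with the median at 0.72. *Tollip* was nearest to *Tlr1* (0.30), then *Tnfaip3* and the TNF receptor gene *Tnfrsf1a* (0.46 each), with the median at 1.06. *Irf1* therefore stood beside both *Traf6* and *Peli1*, and *Tnfaip3* beside both *Traf6* and *Tollip*. All 6 columns enter each distance, and the wild-type ones are means.

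**Figure D5:**
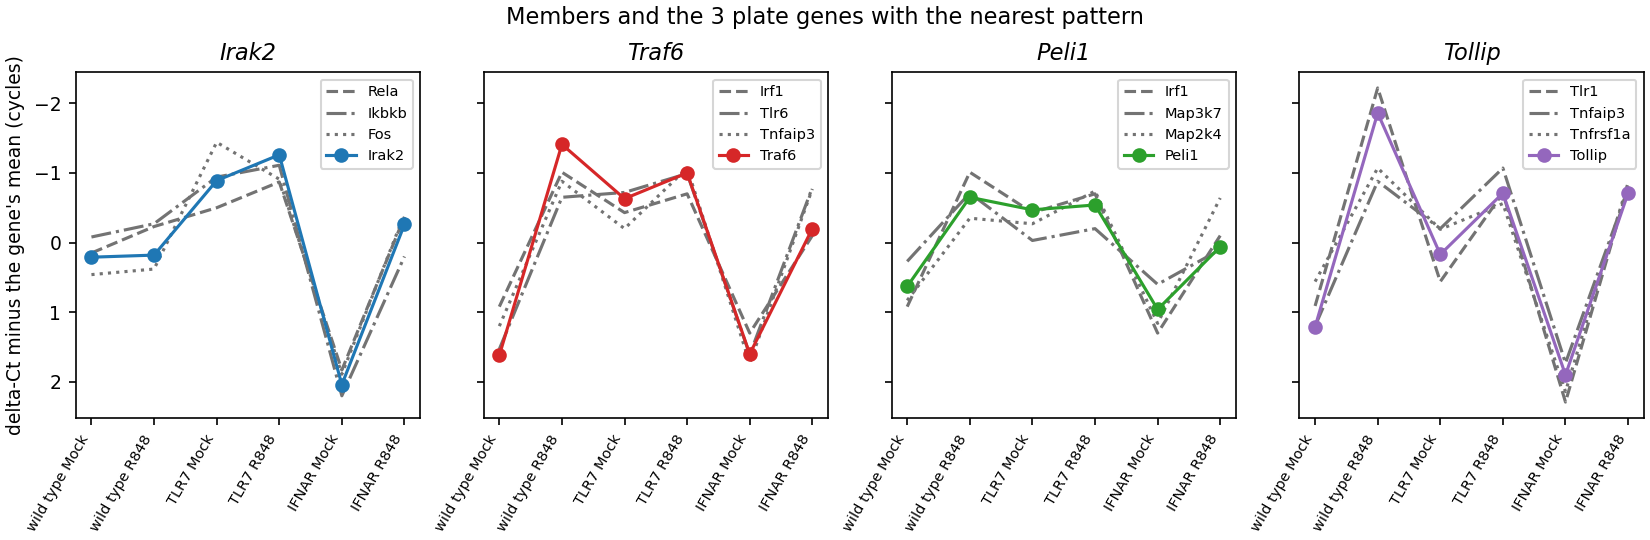
Delta-Ct minus the gene's own mean (vertical axis, cycles, higher level up) over the 6 columns for each member (coloured line with points) and its 3 nearest plate genes (grey lines). *Irak2* and its neighbours differ little between wild-type Mock and R848 and are lowest in IFNAR-labelled Mock, while *Traf6* and *Tollip* climb by 3.03 and 3.08 cycles in wild type.

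Upstream of the node, receptors and adaptors were mostly higher in wild-type mice. The median log2 difference of the 9 genes was 2.38, beside 0.43 over all genes of known direction. At 2-fold, 7 of the 9 were higher with R848, against 38.1% of the 84 genes, and none was lower, against 13.1%. They were *Tlr4*, the lipopolysaccharide receptor (4.58), *Tlr1*, a lipopeptide receptor (3.13), *Tlr7*, the receptor of R848 (2.53), *Myd88* (2.48), *Tirap*, its bridging adaptor (2.38), *Tlr6*, a partner of TLR2 (2.18), and *Tlr9*, a receptor for DNA (1.03). Only *Tlr1* was higher in TLR7-labelled mice (1.27), against 4.76% of the 84 genes (list median 0.37, all genes 0.07). All 9 were higher in IFNAR-/- mice, against 53.6% (list median 2.40, all genes 1.5). Of 6 genes of the TRAF6 ubiquitin and TAK1 step, by contrast, 1 was higher in wild-type mice (median 0.68), against 38.1% of the 84 genes. That gene was *Nr2c2* (1.23), an orphan nuclear receptor that shares the alias TAK1 with the kinase but is another gene. The kinase itself, *Map3k7* (0.98), and the conjugating pair *Ube2v1* (0.93) and *Ube2n* (0.43) were within 2-fold. None of the 6 was 2-fold away in TLR7-labelled mice, where 4.76% of the 84 genes were higher and 3.57% lower. In IFNAR-/- mice 3 were higher, against 53.6%.

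Besides *Tollip*, the plate held 4 brakes of the fixed list, and they did not move one way in wild-type mice. *Il10*, an anti-inflammatory cytokine (4.23), and *Tnfaip3* (2.08) were higher, *Nfkbia*, the inhibitor of NF-kB, was lower (-1.57), and *Nfkbib* was within 2-fold (-0.77). None of the 4 was 2-fold away in TLR7-labelled mice, where 4.76% of the 84 genes were higher and 3.57% lower. In IFNAR-/- mice 3 were higher, against 53.6%. Of 8 other kinases and adaptors that meet the node, 3 were higher and 3 lower in wild-type mice, against 38.1% and 13.1% of the 84 genes. The higher ones were *Ticam1* (2.28) and *Ticam2* (1.33), adaptors of the TRIF branch, and *Casp8*, an apoptotic protease (1.23). The lower ones were *Ripk2*, a kinase of NOD receptors (-1.77), *Btk*, which acts below the B cell receptor (-1.57), and *Tradd*, an adaptor of the TNF receptor (-1.42). In the TLR7-labelled pair *Casp8* alone of the 8 was lower (-1.23), and in IFNAR-/- mice *Ticam1* (3.70) and *Ticam2* (3.10) were higher and *Tradd* lower (-1.10). *Btk* was at the cap without a known direction in both deficient strains, and *Casp8* in IFNAR-/- mice. Both genes are among the first 4 wells.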

How the data were processed

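Each strain has 1 deposited table of delta-Ct values, which are on a log2 scale and, per the file headers, subtract the average Ct of the housekeeping genes. Beside them stands the authors' fold difference, the ratio of the R848 to the Mock level. It was recomputed from delta-Ct and matched for 89 of 89 genes in each table. Per the labels' protocols, oligo(dT) primed the reverse transcription of total RNA. Per the series' design text, a blank or a Ct past 35 was entered as 35, and 2 wild-type experiments were combined. All 6 delta-Ct columns were used, and another 6 columns of per-sample values were not.

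A cap is the highest delta-Ct of a column where several genes share it. A difference is a lower bound, or has no known direction, where Mock or R848 is at the cap. The calling code was run on simulated data with known changes larger than the threshold and noise of an assumed size. That checks the code alone and says nothing of the error of these readings. Members, lists and the rule for named genes (the members, the 3 genes nearest to each, and list genes at 2-fold in wild type, others being named after their values were seen) were chosen with earlier results of these data known. The self-made summaries used Python 3.11.15, numpy 2.4.6 and pandas 2.3.3. Alternatives were *Hprt1*, *Hsp90ab1* or *Gapdh* as the sole reference, the 5 housekeeping genes together, subtraction of the median gene's difference, thresholds of 1.5-fold and 3-fold, values within 2 cycles of the cap as limits, TLR7-labelled Mock as control and leaving out the first 4 wells; the median Mock control and the gaps between members were chosen after seeing the data. Protein sequences were not used here.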

Additional observations from a re-analysis of the deposited data

Results flagged for a closer look

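The response of *Irak2* relative to *Traf6* and to *Peli1* had opposite signs in wild-type mice and in a deficient strain, each being 1 pooled pair or a mean, and the difference was not tested. *Irak2* minus *Traf6* was -3.00 in wild-type mice and 0.50 in IFNAR-/- mice. *Irak2* minus *Peli1* was -1.25 in wild-type mice, 0.30 in TLR7-labelled mice and 1.40 in IFNAR-/- mice. *Irak2* minus *Traf6* was 0.00 in TLR7-labelled mice, and *Irak2* minus *Tollip* was below 0 in all 3 strains (-3.05, -0.50 and -0.30).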

How the results depend on the processing

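The members' log2 differences were judged under planned settings that could move either the value or its side of the threshold. Of these, 70 of 92 kept their direction and side of the threshold. So did 7 of 12 with the median Mock control, chosen after seeing the data. The 92 include the 1.5-fold and 3-fold thresholds, under which the value is the deposited one. Direction could not change there, and only the side of the threshold could. Another 24 values, with readings near the cap as limits or without the first 4 wells, repeat the deposited ones by construction. With TLR7-labelled Mock as control, 1 member was higher (*Tollip*) and 1 lower (*Irak2*) in wild-type mice, and 0 were higher in IFNAR-/- mice. Values that changed sign under it were -1.07 for *Irak2* in wild-type mice and -0.63, -0.43 and -0.53 for *Irak2*, *Traf6* and *Peli1* in IFNAR-/- mice. *Irak2* in wild-type mice also turned to -0.25 (*Hprt1* alone), -0.20 (*Gapdh* alone), -0.47 (5 housekeeping genes) and -0.38 (centring). *Peli1* turned to -0.10 (*Hprt1* alone) and -0.04 (5 housekeeping genes) in TLR7-labelled mice and to -0.35 (centring) in IFNAR-/- mice. In TLR7-labelled mice 1 member, *Tollip*, was higher at 1.5-fold or with *Hsp90ab1* alone, and 4 were with the median Mock control. The cause was not tested. Other counts of members stayed within 1.5 times, and nearest genes are the same under any scaling by construction. No paired analysis was possible because the wild-type table gives 1 mean per treatment, and for the same reason no experiment could be left out. Without the first 4 wells 37.5%, 3.75% and 55% of 80 genes were higher in wild-type, TLR7-labelled and IFNAR-/- mice.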

Other observations

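Of 69 genes below the cap throughout, 10 lay within 0.25 log2 units of 0 in wild-type mice, and 4 of these 10 were at least 2-fold higher with R848 in IFNAR-/- mice, limits chosen after the values were seen. Over the whole plate 53.6% of 84 genes were, so the 4 of 10 is not above the plate's share. The 84 include genes at the cap, which the 69 leave out, so the sets compared are not alike. Besides *Irak2* (0.03 and 2.30) they were *Fos*, an AP-1 subunit (0.08 and 2.30), *Ikbkb*, an IKK kinase (0.18 and 2.00), and *Muc13*, a membrane mucin (-0.02 and 1.30).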
